A study of Mus musculus with 6 samples.

Results

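Imprinted genes are transcribed mainly or only from the allele inherited from 1 parent. The 38 members described here were chosen by gene symbol from a list of known mouse imprinted genes, and all 38 had a row among the 34245 rows of the expression table. Expression was measured by RNA-seq in 3 peripheral T-cell lymphomas (PTCL), each taken from the lymph node of an FVB mouse in the final stage of disease. The animals were Dnmt3b+/-, which means that 1 allele of the de novo DNA methyltransferase gene Dnmt3b was inactivated in every cell and not only in T-cells. Ages are not given for these libraries, and the tumors have no paired normal sample here. Levels are FPKM, which divides the reads of a gene by the length of its exons and by library depth and so allows genes to be compared. They imply depths of 30726570 reads for tumor 1, 18969988 for tumor 2 and 20770928 for tumor 3, from which whole reads per gene were recovered. In order of tumor number, as for every series of 3 values below, Dnmt3b itself had 0.975, 1.55 and 1.25 FPKM, or 153, 150 and 133 reads, with both alleles summed.

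All 9 T-cell markers were above 0.2 FPKM in every tumor, and the CD8 chain gene Cd8b1 had the highest mean of them, with 435, 166 and 443 FPKM in tumors 1, 2 and 3. The libraries differed in other tissue RNA. A list of 8 pancreatic acinar genes summed to 87.0, 440 and 0.657 FPKM. Its highest gene, the digestive protease precursor Ctrb1, reached 33.9 FPKM in tumor 1 and 198 in tumor 2, with no read in tumor 3. Fibroblast and stroma genes without Thy1, which T-cells also express, summed to 7.01, 41.5 and 0.368 FPKM. These values are given here because several members below were detected in tumors 1 and 2 and not in tumor 3.

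Imprinting begins in the germ line, where DNA methylation is laid down on a control region in the egg or in the sperm. After fertilisation the mark is kept on that parental copy by the maintenance methyltransferase Dnmt1 with zinc finger proteins such as ZFP57, while most of the genome is remodelled. Many imprinted genes act in fetal growth, placenta and brain and are switched down after birth, often with a long noncoding RNA in the same cluster that is read from the opposite parental copy. Some members are imprinted only in certain tissues or from certain start sites and are read from both copies elsewhere. FPKM adds the RNA of both copies, and inbred mice carry no sequence difference between them, so no value below says which allele was read.

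Promoter sequences were taken from RefSeq (GRCm38.p6), with 250 bases before and 50 bases after a start site, and 32 of the 38 members had an entry. The promoters of Gnas and H13 are shown because these members had the highest mean FPKM among those with an entry. Those of Plagl1 and Ndn are shown because a single tumor held a larger share of their summed FPKM than for the other members with an entry. The promoters of the intronless genes Mcts2 and Zrsr1 were added after their values were seen, since both lie inside another member. Gnas has 4 start sites in the table, and the one furthest along the gene is shown, at chr2:174329756-174330055 on the plus strand. The H13 promoter lies at chr2:152669211-152669510, the Mcts2 promoter at chr2:152686898-152687197, the Plagl1 promoter at chr10:13090582-13090881, the Ndn promoter at chr7:62348027-62348326 and the Zrsr1 promoter at chr11:22971755-22972054, all on the plus strand. The expression rows start at chr7:62346569 for Ndn, chr10:13060504 for Plagl1 and chr11:22973215 for Zrsr1, so these windows do not lie at the row starts. Capitals mark each CpG, the dinucleotide that DNA methyltransferases modify.
Gnas: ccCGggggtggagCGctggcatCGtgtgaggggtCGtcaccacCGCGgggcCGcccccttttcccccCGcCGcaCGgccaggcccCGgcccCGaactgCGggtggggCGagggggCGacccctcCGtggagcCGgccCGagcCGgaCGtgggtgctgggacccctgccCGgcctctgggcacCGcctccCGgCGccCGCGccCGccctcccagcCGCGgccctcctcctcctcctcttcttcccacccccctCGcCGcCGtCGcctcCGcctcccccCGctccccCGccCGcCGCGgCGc
H13: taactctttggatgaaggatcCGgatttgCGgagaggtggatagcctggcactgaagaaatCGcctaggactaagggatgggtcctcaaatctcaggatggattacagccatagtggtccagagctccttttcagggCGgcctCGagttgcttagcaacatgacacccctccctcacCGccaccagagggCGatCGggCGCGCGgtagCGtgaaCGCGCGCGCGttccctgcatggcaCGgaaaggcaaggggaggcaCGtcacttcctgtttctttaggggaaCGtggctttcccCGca
Mcts2: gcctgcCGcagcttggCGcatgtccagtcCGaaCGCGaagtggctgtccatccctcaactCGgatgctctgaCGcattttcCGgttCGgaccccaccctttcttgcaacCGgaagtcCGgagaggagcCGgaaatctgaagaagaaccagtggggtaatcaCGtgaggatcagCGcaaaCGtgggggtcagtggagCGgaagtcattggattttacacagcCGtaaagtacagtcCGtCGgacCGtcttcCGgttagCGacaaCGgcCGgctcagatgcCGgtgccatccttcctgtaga
Zrsr1: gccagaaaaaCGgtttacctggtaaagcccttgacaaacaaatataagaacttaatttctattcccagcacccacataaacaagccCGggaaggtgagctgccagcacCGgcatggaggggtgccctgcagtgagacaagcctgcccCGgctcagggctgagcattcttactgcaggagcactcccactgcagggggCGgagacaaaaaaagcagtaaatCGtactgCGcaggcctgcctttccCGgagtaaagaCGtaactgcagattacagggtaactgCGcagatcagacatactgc
Plagl1: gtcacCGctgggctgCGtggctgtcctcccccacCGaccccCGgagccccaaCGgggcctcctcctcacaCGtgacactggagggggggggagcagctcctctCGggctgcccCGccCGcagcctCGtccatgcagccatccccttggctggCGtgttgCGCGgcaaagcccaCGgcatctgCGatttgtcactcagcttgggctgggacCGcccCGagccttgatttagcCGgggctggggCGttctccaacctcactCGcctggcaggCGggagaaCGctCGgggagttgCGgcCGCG
Ndn: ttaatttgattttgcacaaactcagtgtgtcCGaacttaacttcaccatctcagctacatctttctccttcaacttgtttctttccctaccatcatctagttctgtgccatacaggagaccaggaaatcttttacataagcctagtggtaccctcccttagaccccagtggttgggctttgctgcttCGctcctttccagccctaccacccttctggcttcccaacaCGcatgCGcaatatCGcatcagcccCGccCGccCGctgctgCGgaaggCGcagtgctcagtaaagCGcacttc

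The Gnas window held 40 CpG, that of Plagl1 26, Mcts2 25, H13 21, Ndn 11 and Zrsr1 10. Over the 46 promoters listed for the members the median was 15 CpG, against 7 over all 32851 promoters in the table. The letters TGCCGC, the core that ZFP57 recognises when its CpG is methylated, were searched on both strands, and each match contains 1 of the counted CpG. They were in 11 of the 46 member promoters (23.9%) and in 11.6% of all promoters. By gene, 10 of 32 members held them in at least 1 promoter, namely Mcts2, Nnat, Commd1, Mest, Grb10, Plagl1, Snrpn, Meg3, Igf2 and Zim1, against 13.1% of the 27025 genes in the table. The letters were in 3 of the 11 members with an entry above 0.2 FPKM in every tumor, and in 1 of the 9 without a read, Zim1. Mcts2 was the highest member that held them, with 2.96 FPKM on average. Gnas, H13, Igf2r, Blcap and Ube3a were higher and did not hold them. A match is only a description of the window, and methylation was not analysed here.

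A threshold of 0.2 FPKM was exceeded in every tumor by 12 of the 38 members (31.6%), which are Gnas, H13, Igf2r, Impact, Blcap, Ube3a, Mcts2, Zrsr1, Commd1, Airn, Inpp5f and Nnat. The share over all rows was 36.7%, or 36.1% without the 199 rows that passed although a tumor had no read, since 0.9 read exceeds 0.2 FPKM in short genes. Of the 31 protein-coding members 11 did so (35.5%), against 49.2% of all protein-coding genes. No read in any tumor was recovered for 11 of the 38 members (28.9%), against 41.3% of the rows with recovered reads. These 11 are Nespas, Magel2, Mkrn3, Phlda2, Ascl2, Dlk1, Mirg, Usp29, Zim1, Peg10 and Rasgrf1. The remaining 15 members had at least 1 read in at least 1 tumor without passing the threshold in every tumor.

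**Figure D1:**
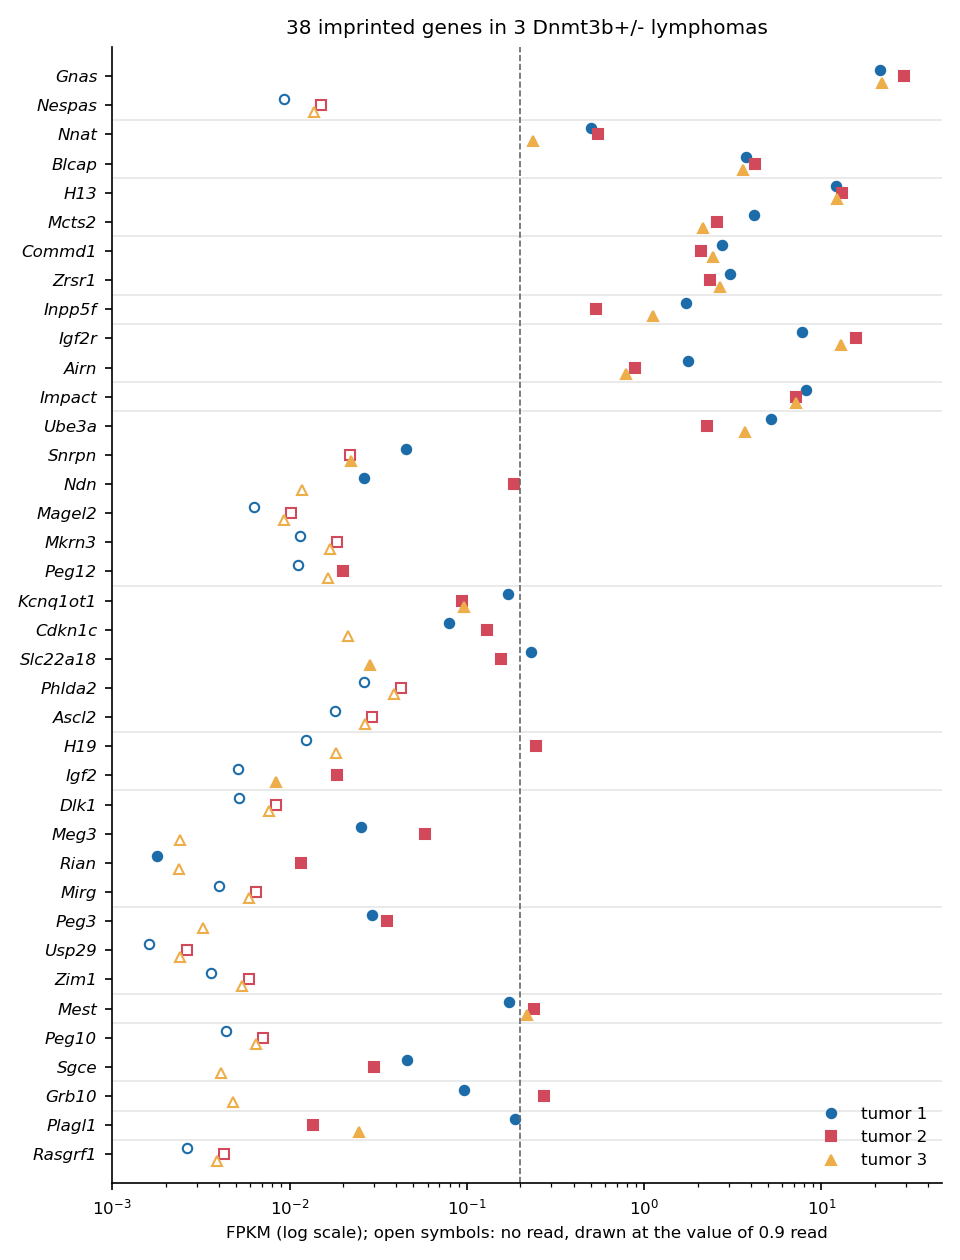
FPKM of the 38 members (vertical axis, grouped by locus) in tumors 1, 2 and 3 on a log axis, with open symbols for tumors without a read, drawn at the FPKM of 0.9 read, and a dashed line at 0.2 FPKM. Gnas reaches 29.3 FPKM, 12 members lie to the right of the line in every tumor, and Grb10, Sgce, Peg3, Meg3, Rian, Ndn and Cdkn1c have an open symbol in tumor 3 alone.

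Paternally and maternally expressed members overlapped in level. The 21 paternally expressed members had a median of 0.0266 FPKM, and 5 of them exceeded 0.2 FPKM in every tumor. Of the 11 maternally expressed members Igf2r alone was past the threshold in every tumor, and their median of 0.0357 FPKM is the value of Phlda2, which had no read, and so is not a measured level. The 6 members imprinted only in some tissues or transcripts had a median of 3.79 FPKM, and all 6 exceeded the threshold in every tumor. For all 38 members the median was 0.0748 FPKM, against 0.0976 over all rows. The members' median was 0.0331 without tumor 2 and 0.102 without tumor 3. No median over all rows is given for these settings, so whether its order against all rows holds there is not known. Medians this low lie close to the value a gene without a read holds and depend on its length.

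**Figure D2:**
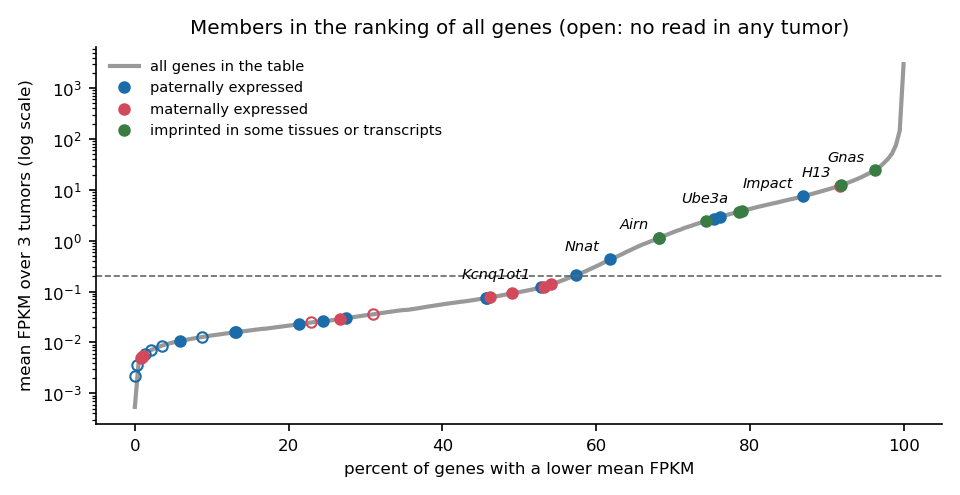
Mean FPKM over the 3 tumors (log axis) against the percent of genes with a lower mean, for all genes in the table (grey line) and for the members, coloured by the allele read in most tissues, with open circles where no tumor had a read. All 6 members imprinted in some tissues or transcripts lie above the dashed line at 0.2 FPKM, from Inpp5f at 1.13 to Gnas at 24.2 FPKM.

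Among the members with tissue-restricted imprinting, Gnas was the highest. It encodes the alpha subunit of the stimulatory G protein, which couples receptors to cyclic AMP production, and is read mainly from the maternal copy in a few tissues. Its FPKM was 21.3, 29.3 and 21.9 in tumors 1, 2 and 3, a mean of 24.2 ± 4.48 (SD, n = 3), above 96.2% of all rows. Tumor 2 was 1.38 times tumor 1, with a 95% counting interval of 1.33 to 1.42. Nespas, a noncoding RNA that is read from the paternal copy against an upstream start site of Gnas, had no read in any tumor. In the annotation 988 exon bases of Nespas lie opposite exons of Gnas.

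H13, a signal peptide peptidase of the endoplasmic reticulum, was the least variable of the highly expressed members. It had 12.1, 12.99 and 12.2 FPKM, a mean of 12.4 ± 0.493 (SD, n = 3). Blcap, a small membrane protein imprinted in brain, was similarly even, with 3.74, 4.23 and 3.59 FPKM. Commd1, a factor in copper handling and NF-kB control, had 2.74, 2.10 and 2.45 FPKM.

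Ube3a and Inpp5f varied more, and in the same order of tumors. Ube3a encodes a ubiquitin ligase that is read from the maternal copy alone in neurons and from both copies in most other cells. Its FPKM was 5.19, 2.26 and 3.70, so that tumor 1 was 2.29 times tumor 2 (95% counting interval 2.13 to 2.47). Inpp5f, an inositol phosphatase with an imprinted short transcript in brain, had 1.72, 0.538 and 1.13 FPKM. Tumor 1 was 3.20 times tumor 2 for this gene, with a counting interval of 2.53 to 4.08. Every pair of tumors differed by more than its counting interval for both genes, while differences between animals cannot be separated from differences between libraries.

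Ube3a lies opposite the end of Snhg14, the long noncoding RNA that silences the paternal copy of Ube3a in neurons. The table splits Snhg14 into 5 rows, and the one at chr7:59307924-59324149 (mm10) covers 3613 bases of the Ube3a gene. That row had 4.22, 1.39 and 3.06 FPKM, the same order of tumors as Ube3a. Of its other rows, 3 had no read in any tumor. The last, nearest to Snrpn, had 0.0497 FPKM in tumor 1 and no read in tumors 2 and 3. Whether counting used the strand is not stated, so reads of Ube3a and of this Snhg14 row cannot be told apart within the bases they share.

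Several members sit inside an intron of another gene, and guest and host can be set side by side. Mcts2, an intronless copy of the X-linked translation factor gene Mcts1 that is read from the paternal allele, lies within an intron of H13 on the same strand. It had 4.15, 2.59 and 2.15 FPKM from 117, 45 and 41 reads. This was 34.4% of the H13 level in tumor 1 (95% counting interval 28.4 to 41.4), 19.9% in tumor 2 and 17.6% in tumor 3. The interval of tumor 3 ran from 12.6 to 23.9 and did not meet that of tumor 1. Unspliced H13 RNA, on the same strand, cannot be told apart from Mcts2 in these reads. Mcts1 itself had 22.7, 15.5 and 30.5 FPKM. Because the copies are alike in sequence, some reads may have been dropped by the filter on mapping quality or assigned to the wrong one.

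Zrsr1, an intronless copy of the X-linked splicing factor gene Zrsr2, lies within Commd1 on the opposite strand and is read from the paternal allele. Its FPKM was 3.05, 2.35 and 2.68, from 308, 146 and 183 reads. Relative to Commd1 it stood at 112%, 112% and 110% in tumors 1, 2 and 3. All 3 counting intervals included equal levels and the tumors could not be ordered. Zrsr2 was higher in every tumor, between 4.64 and 6.19 FPKM. Reads alike in Zrsr1 and Zrsr2 may likewise have been dropped or assigned to the wrong gene. In the annotation 203 exon bases are shared by Zrsr1 and Commd1, so part of their reads cannot be told apart.

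Nnat, a small membrane protein of brain and endocrine cells that is read from the paternal copy, lies within the intron of Blcap. It was the lowest member to pass the threshold everywhere, with 0.498, 0.548 and 0.237 FPKM from 28, 19 and 9 reads. Its level ranged from 6.60% of that of Blcap in tumor 3 to 13.3% in tumor 1, with overlapping intervals. A further pair of the same kind outside the 38 members was Nap1l5 within Herc3. Nap1l5 had 0.706, 0.515 and 0.183 FPKM, which was 5.14%, 3.72% and 1.21% of its host. Without strand, unspliced RNA of the host cannot be told apart from Nnat or Nap1l5.

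**Figure D3:**
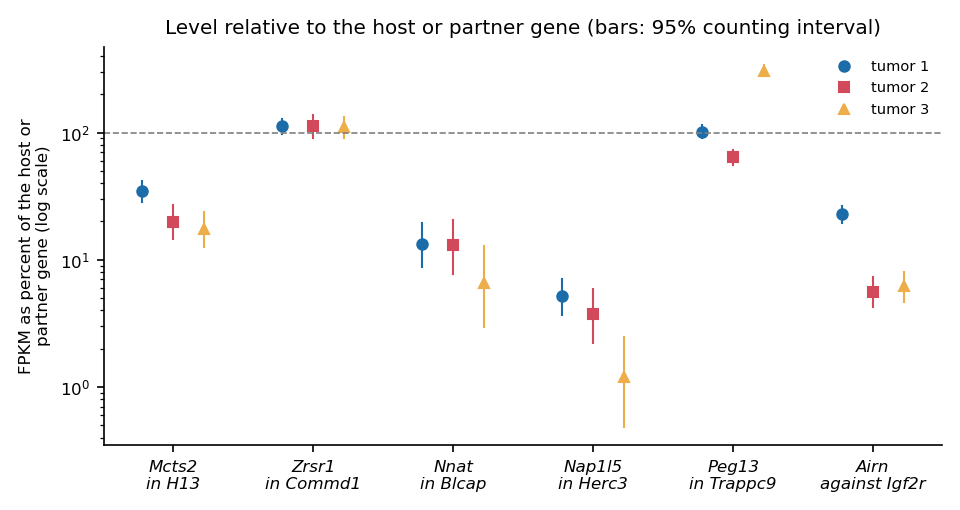
FPKM of a gene as percent of the gene it lies in or, for Airn, of its partner (log axis), in tumors 1, 2 and 3 with 95% exact counting intervals, and a dashed line at equal levels. Zrsr1 sits near the line in every tumor, from 110% to 112% of Commd1, Mcts2 reaches 34.4% of H13 in tumor 1, and Peg13 ranges from 64.1% to 306% of Trappc9.

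Igf2r and Airn form an imprinted pair on chromosome 17, at chr17:12682406-12769664 and chr17:12741311-12860122 (mm10) on opposite strands. Igf2r encodes the receptor that carries mannose 6-phosphate tagged enzymes and clears the growth factor IGF2, and is read from the maternal copy. Airn is the noncoding RNA that is read from the paternal copy across the Igf2r promoter and silences it there. Igf2r had 7.77, 15.7 and 12.8 FPKM in tumors 1, 2 and 3, a mean of 12.1 ± 4.02 (SD, n = 3). Airn had 1.76, 0.883 and 0.793 FPKM, from 194, 60 and 59 reads. Tumor 1 thus had the lowest Igf2r and the highest Airn of the 3 tumors. Airn stood at 22.7% of Igf2r in tumor 1 (95% counting interval 19.5 to 26.3), 5.62% in tumor 2 and 6.18% in tumor 3. Their annotated exons do not overlap, but Airn crosses introns of Igf2r, and unspliced Igf2r RNA cannot be told apart from Airn there without strand.

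Impact, a regulator of the stress kinase GCN2 that is read from the paternal copy, was the most highly expressed of the paternally expressed members. Its FPKM was 8.21, 7.17 and 7.17, a mean of 7.52 ± 0.601 (SD, n = 3). Tumor 1 was 1.15 times tumor 3, with a counting interval of 1.03 to 1.28. Impact, H13 and Blcap differed least between the 3 tumors among the members above 0.2 FPKM in every tumor. The median range between tumors was 0.93 on the log2(FPKM + 0.1) scale over the 16 members above 0.2 FPKM in at least 1 tumor, against 0.86 over all such genes. Grb10, H19 and Slc22a18 were above this threshold only in the tumor where they were highest. The members' value was 0.25 to 0.41 with a tumor left out, where a range spans fewer tumors by construction. It was 0.72 with median-of-ratios factors and 0.31 with a pseudocount of 1. No value over all genes is given for these settings, so the members are not ranked against all genes here.

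None of the members in the Kcnq1ot1 domain on chromosome 7 exceeded 0.2 FPKM in every tumor, whereas other genes of that region, such as Nap1l4, Tssc4 and Osbpl5 below, did. Kcnq1ot1, the long noncoding RNA read from the paternal copy of this domain, had 445, 150 and 168 reads spread over 84395 bases, which gives 0.172, 0.0937 and 0.0958 FPKM. The gene it lies opposite, the potassium channel gene Kcnq1, had 7, 8 and 5 reads. Cdkn1c, the cyclin-dependent kinase inhibitor p57 and a maternally expressed gene of the domain, had 5, 5 and 0 reads. The transporter gene Slc22a18 had 12, 5 and 1 reads, and the ratio of tumor 1 to tumor 3 was 8.11 with a counting interval of 1.20 to 347. Phlda2, which restrains placental growth, and the transcription factor gene Ascl2 had no read in any tumor.

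The growth factor gene Igf2 and its neighbour H19 had few reads. Igf2, a potent fetal growth gene read from the paternal copy, had 0, 2 and 1 reads in tumors 1, 2 and 3. H19, the maternally expressed noncoding RNA that shares its enhancers, had 11 reads in tumor 2 (95% exact Poisson interval 5.49 to 19.7) and none in the others. Its 0.244 FPKM in tumor 2 was 4.01 times the floor of 3 reads in tumor 3. Such intervals cover counting error only, and a fold over a floor leaves out the counting error of the higher tumor.

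The members of the Dlk1-Meg3 cluster on chromosome 12 also had few reads. Dlk1, a ligand-like inhibitor of Notch signalling and the paternally expressed gene of the cluster, had no read in any tumor, which allows at most 0.0173, 0.0280 and 0.0255 FPKM. Meg3, the maternally expressed noncoding RNA next to it, had 14 reads in tumor 1 and 20 in tumor 2. It had none in tumor 3. Further along, Rian had 1, 4 and 0 reads and Mirg had none, and both are hosts of small RNAs that FPKM of long RNA does not measure.

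In the Snrpn cluster on chromosome 7, whose human counterpart is linked to Prader-Willi syndrome, Ube3a was the only member with appreciable RNA. Snrpn, a spliceosomal protein gene of neurons, had 3, 0 and 1 reads, and Snurf, which shares its transcript, had 1, 0 and 0. Ndn, a MAGE family gene of postmitotic neurons, had 3 reads in tumor 1 (interval 0.619 to 8.77), 13 in tumor 2 (interval 6.92 to 22.2) and none in tumor 3. Tumor 2 held 82.9% of its summed FPKM. Magel2, its relative, and the ubiquitin ligase gene Mkrn3 had no read, and Peg12 had 1 read in tumor 2.

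The members at the loci of Peg3, Peg10, Mest and Rasgrf1 had few reads. Peg3, a zinc finger gene of placenta and brain, had 12, 9 and 0 reads, while its neighbours Usp29 and Zim1 had none. Sgce, which encodes epsilon-sarcoglycan of the cell membrane, had 15, 6 and 0 reads, and the retrotransposon-derived placental gene Peg10 that shares its promoter region had none. Mest, a mesoderm gene of the hydrolase fold, was even across the tumors with 21, 18 and 18 reads, or 0.173, 0.241 and 0.220 FPKM. Its end overlaps 912 exon bases of Copg2 on the other strand, a gene with 4.12, 4.11 and 4.09 FPKM, so some Mest reads may belong to Copg2. Rasgrf1, a Ras exchange factor of neurons, had no read.

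Plagl1 stood apart because tumor 1 was high. This zinc finger gene, also called Zac1, is paternally expressed and slows the cell cycle when overexpressed. It had 45, 2 and 4 reads, or 0.187, 0.0135 and 0.0246 FPKM. Tumor 1 was 13.9 times tumor 2 (95% counting interval 3.63 to 118) and 7.60 times tumor 3 (interval 2.77 to 29.1), while tumors 2 and 3 could not be ordered (ratio of tumor 3 to tumor 2 of 1.83, interval 0.262 to 20.2). All 3 values were below 0.2 FPKM. Several marker genes were also highest in tumor 1, and their part in the Plagl1 reads was not tested. The list of CD4 and immature thymocyte genes, led by Cd4, summed to 38.7, 4.41 and 9.01 FPKM. Dntt, the terminal transferase gene of immature lymphocytes, had 674, 3 and 33 reads, and Rag2 and Ptcra had none in any tumor. The 6 macrophage genes, led by the complement gene C1qa, summed to 217, 113 and 16.0 FPKM, with none at 0 reads, although Cd68 was highest in tumor 2 with 51.2 FPKM, against 19.6 and 9.27 in tumors 1 and 3. The globin genes of red blood cells fell from tumor 1 to tumor 3, with 92.3, 19.6 and 1.90 FPKM for Hba-a1 and 35.3, 6.93 and 1.25 FPKM for Hbb-bs.

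Grb10, an adaptor that dampens insulin receptor signalling, had the widest range between tumors of the 38 members, 1.83 on the log2(FPKM + 0.1) scale. It had 27, 47 and 0 reads, and its FPKM was 0.0967 in tumor 1 and 0.273 in tumor 2. The FPKM of tumor 2 was 17.2 times and that of tumor 1 6.08 times the floor of 3 reads in tumor 3, without the counting error of tumors 1 and 2. Of the 16 members above 0.2 FPKM in at least 1 tumor, 2 had over 66.7% of their summed FPKM in 1 tumor. These are Grb10 and H19, and both passed the filter in tumor 2 alone, the tumor that held this share. Without the filter the count was 6 of 38 members, against 7.9% of all rows, with tumors without a read at the FPKM of 0.9 read. Over all genes under the same filter the share was 12.1%, close to that of the members. With the filter the count was 5 without tumor 3, 3 without tumor 2 and 4 without tumor 1. Shares of 2 tumors are higher by construction, and over all genes 34.1%, 27.2% and 26.4% passed in these cases.

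A lack of reads in tumor 3 alone recurred among the members. At least 3 reads in each of tumors 1 and 2 and none in tumor 3 were found for 6 of the 38 members, Sgce, Peg3, Meg3, Grb10, Ndn and Cdkn1c. Over all rows with recovered reads 1.87% had this pattern, and 41.3% of these rows had no read in any tumor and could not show it. No share over rows with equally few reads is given. Tumor 3 also had the fewest rows with a read, 16775 against 18988 in tumor 1 and 17699 in tumor 2. For Cdkn1c, and for Ndn in tumor 1, the interval of the reads overlapped that of 0 reads, which reaches 3.69. The mirrored patterns, with no read in tumor 2 alone or in tumor 1 alone, were found for 0 members and for 0.737% and 0.114% of the rows.

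Markers of several other cell types were also lowest in tumor 3. Of the 8 fibroblast and stroma genes, all 8 exceeded 0.2 FPKM in tumors 1 and 2 and 2 did so in tumor 3, where Pdgfra and Lum had no read. The collagen gene Col3a1 had 560, 2670 and 1 reads, Col1a1 had 328, 1930 and 43, and the list including its highest gene Thy1 summed to 161, 65.8 and 32.2 FPKM. The 8 acinar genes all exceeded the threshold in tumors 1 and 2 and none did in tumor 3, where Ctrb1, Cpa1 and Pnlip had no read. The 5 adipocyte genes, led by Fabp4, summed to 0.734, 5.68 and 0.141 FPKM, with Adipoq, Plin1, Cidec and Lep at 0 reads in tumor 3. All list sums hold genes without a read at the FPKM of 0.9 read. Of the adipocyte sum in tumor 3, Fabp4 gave 0.0643 FPKM and the genes without a read the rest. The 5 endothelial genes, led by Pecam1, summed to 13.6, 12.9 and 5.16 FPKM, and none was at 0. The 5 neuronal genes, led by Tubb3 with 13, 2 and 1 reads, summed to 0.366, 0.0867 and 0.0525 FPKM. Tubb3 gave 0.0258 FPKM of the sum in tumor 3, where the others had no read. Among them Stmn2 had 17, 1 and 0 reads, Syt1 had 8, 0 and 0, Snap25 had 1, 0 and 0, and Rbfox3 had none in any tumor. The part of these cell types in the reads of Grb10, Meg3, Peg3, Sgce, Ndn and Cdkn1c was not tested, and in a bulk sample fewer cells of a type and less RNA per cell cannot be told apart.

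**Figure D4:**
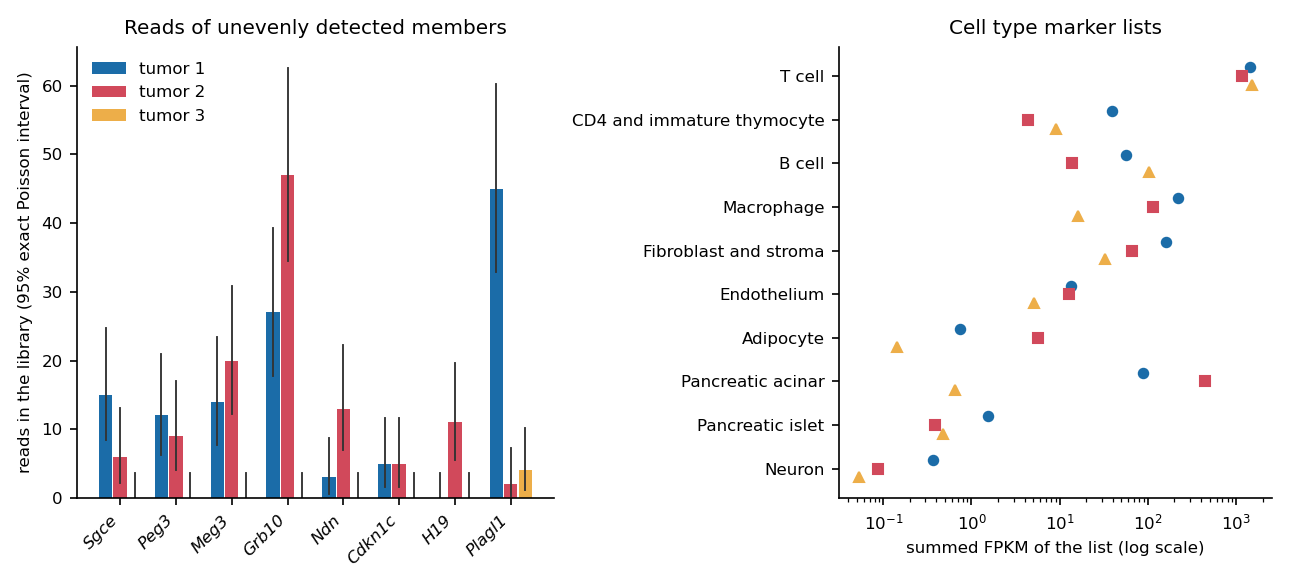
Left, reads of 8 unevenly detected members in each tumor with 95% exact Poisson intervals. Right, the summed FPKM (log axis) of 10 cell type marker lists in the same tumors. Grb10 has 47 reads in tumor 2 and none in tumor 3, and the acinar list falls from 440 FPKM in tumor 2 to 0.657 in tumor 3, whereas the T-cell list lies between 1182 and 1528 FPKM in all tumors.

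The B cell list did not follow this order. The 5 B cell genes in the table, led by the antigen receptor component Cd79a, summed to 56.2, 13.7 and 104 FPKM and were thus highest in tumor 3. The 7 islet genes were at or near 0 apart from Gcg, which had 62, 0 and 6 reads. The members Snrpn, Ndn, Magel2 and Rasgrf1, which neurons express, had at most 13 reads in any tumor. Not all members tied to brain above were this low, as Nnat had 28, 19 and 9 reads.

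Of 40 further imprinted genes, 39 were in the table, and 16 of them exceeded 0.2 FPKM in every tumor, against 36.7% of all rows. Of the 37 protein-coding genes among them 15 did so (40.5%), against 49.2% of all protein-coding genes. The 6 highest were the histone chaperone gene Nap1l4 with a mean of 37.4 FPKM, the ubiquitin ligase gene Herc3 with 14.2, the lipid flippase gene Atp10a with 13.2, Tssc4 with 7.63, the lipid transfer gene Osbpl5 with 5.72 and the noncoding RNA Peg13 with 5.34. Atp10a had 20.2, 14.4 and 5.03 FPKM and was lowest in tumor 3. Peg13, which lies within Trappc9 and is read from the paternal copy, had 2.75, 3.27 and 10.0 FPKM. In tumor 3 it was 3.64 times tumor 1 (95% counting interval 3.23 to 4.10), and it reached 306% of Trappc9 there, against 102% and 64.1% in tumors 1 and 2. Unspliced Trappc9 RNA, on the same strand, cannot be told apart from Peg13.

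Asb4 was the only further imprinted gene at 1 FPKM or more in a tumor that held over 66.7% of its FPKM. This ubiquitin ligase adaptor, a neighbour of Peg10 and Sgce, had 19, 1 and 120 reads, or 0.157, 0.0134 and 1.47 FPKM. It was thus highest in the tumor in which Sgce had no read. Dcn, named after its values were seen, encodes the matrix proteoglycan decorin of fibroblasts and is imprinted in placenta. It had 904, 362 and 1 reads.

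Of 21 genes that set or protect imprints, all protein-coding, 16 exceeded 0.2 FPKM in every tumor, against 49.2% of all protein-coding genes. The corepressor gene Trim28 had a mean of 31.6 FPKM, the maintenance methyltransferase gene Dnmt1 29.6, the histone methyltransferase gene Ehmt2 23.7 and the Dnmt1 recruiter Uhrf1 22.9. Ctcf, the insulator protein of the H19 control region, had 19.2 FPKM, the zinc finger gene Zfp445 14.7, Smchd1 11.3 and Eed 10.5. Arid4a had 9.61, the demethylase gene Kdm1b 7.54, Tet3 7.43, Setdb1 6.27, Arid4b 3.67 and Tet2 2.11 FPKM. Dnmt3a, the other de novo methyltransferase gene, had 2.52, 5.76 and 1.77 FPKM, and without tumor 2 its values lay between 1.77 and 2.52.

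The other 5 of these genes were below 0.2 FPKM in every tumor. Zfp57, which binds the letters searched in the promoters above, had 8, 13 and 0 reads, again none in tumor 3. Zfp445, the second zinc finger protein known to guard imprints, was between 12.9 and 18.1 FPKM in the same tumors. The germ cell and early embryo genes Dppa3, Ctcfl and Dnmt3l had at most 3 reads in any tumor. Tet1 had 77, 25 and 17 reads and a mean of 0.103 FPKM, above 50.8% of all rows.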

How the data were processed

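RNA-seq of 3 Dnmt3b+/- PTCL was used. The 3 WGBS samples, and control and Dnmt3a RNA-seq libraries, were not analysed here. The authors trimmed paired-end reads of 150 bases, aligned them to mm10 with STAR, kept reads of high mapping quality and quantified genes in SeqMonk. Per gene and tumor the authors deposited linear FPKM. Whether counting used the strand is not given in the sources used here.

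Rows with no read are set to 0.9 read, which gave the depth of each library. Exon lengths of GENCODE M21 gave whole reads (within 0.02 read, with a tolerance relative to the count above that) in all tumors for 91.6% of rows and 31 of 38 members. The size of the relative tolerance is not given here, so these shares are less certain for genes with large counts. For the other 7 members, and for 2844 rows in all, a length that gave whole reads in every tumor was solved for, and 48 rows were left without reads. Single reads of such genes are less certain.

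With 1 group of 3 tumors no test was made. Intervals are exact Poisson for reads and exact binomial for ratios, at 95%. The floor for a tumor without a read is 3 reads per library. Ranges used log2(FPKM + 0.1). The members and lists were chosen with earlier results of these data known. All members and imprint maintenance genes were named, of other imprinted genes the 6 highest and any with a dominant tumor at 1 FPKM or more, the highest genes of each marker list, and hosts and paralogs of members. Markers beyond the 3 highest of a list were named for having no read, and Snhg14, Copg2 and Dcn after their values were seen. The total of the erythroid list is not reported here. Alternatives were FPKM thresholds of 0.1 and 1, at most 3 reads, a dominant share of 50%, other gene filters, pseudocounts of 1 and 0.01, median-of-ratios factors, each tumor's FPKM scaled to a total of 1000000, summed symbols and each tumor left out. Tumor 3 alone was added after seeing the data. The steps were tested on simulated data. Python 3.11.15, NumPy 2.4.6, pandas 2.3.3, SciPy 1.17.1 and matplotlib 3.10.9 were used.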

Additional observations from a re-analysis of the deposited data

How the results depend on the processing

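The counts of members, of other imprinted genes and of imprint maintenance genes above 0.2 FPKM in every tumor, and of members without a read, stayed within 1.5 times the reported count under every alternative run for them, with 9 to 14 members above the threshold and 13 in tumor 3 alone. The count of members with a dominant tumor, reported as 2, was 5 at a share of 50%, 6 over all members, 0 over members with a mean of at least 1 FPKM, 4 after rescaling to a sum of 1000000, and 3 to 5 with a tumor left out, where shares are higher by construction. The log2 range, reported as 0.93, was 0.31 with a pseudocount of 1, 0.34 over all members, 1.22 after rescaling, 0.72 with median-of-ratios factors, and 0.25 to 0.41 with a tumor left out, where a range spans fewer tumors by construction. Rescaling multiplies every FPKM and took the median of all members to 0.372, of the paternally expressed to 0.135 and of the maternally expressed to 0.172. With a tumor left out these medians ran from 0.0331 to 0.102, 0.0191 to 0.0336 and 0.0224 to 0.0417, the reported maternal median being that of a gene without a read. Where no reason is given the cause was not tested. The mean FPKM of all 38 members moved by more than 1 SD under rescaling and of none under median-of-ratios factors, and no member has a repeated symbol to sum. Leaving out 1 of 3 tumors cannot move a mean by 1 SD, so a factor of 1.5 was used there. Without tumor 1 the means of 3 members moved by more, Plagl1 (0.0751 to 0.0191 FPKM), Sgce and Slc22a18. Without tumor 2 those of 7 did, H19 (0.0917 to 0.0153), Grb10 (0.125 to 0.0507), Ndn, Cdkn1c, Igf2, Meg3 and Rian, and without tumor 3 those of 0 did. Members under about 20 reads rest on counts whose intervals span several-fold.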
